A study of Drosophila melanogaster with 3 samples.

Results

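The 10 autophagy genes described here were taken from a fixed list of symbols: Atg1, Atg13, Atg6, Atg9, Atg5, Atg7, Atg8a, Atg8b, Atg12 and ref(2)P. Each symbol was matched to its FlyBase gene ID through the fly annotation, and all 10 had a line among the 11922 gene IDs measured. They were measured in AKHR+ neurons, brain neurons that carry the receptor for adipokinetic hormone (AKH), a hormone that signals hunger in the fly. RNA from 3 libraries was reverse transcribed, amplified as cDNA and sequenced. All libraries came from a single group of flies that carried nSyb-AD-AKHR-BD-GAL4;UAS-mCD8gfp, aged 5 days on normal food. This split GAL4 driver makes membrane-bound GFP only where its nSyb-driven piece, active in neurons, and its AKHR-driven piece meet. Green cells were picked by hand from dissected brains. The labels name each library as 1 neuron, but they also speak of single cells being pooled, so "cell 1", "cell 2" and "cell 3" here each stand for 1 library. If a library held several cells, fewer expressing cells and less RNA per cell cannot be told apart. No other diet, genotype or cell type is analysed here, so genes were compared with each other inside a cell, and a gene's level was compared from cell to cell. The labels do not say whether the cells came from separate flies, so the p-values below measure only the spread between these 3 libraries, which may be technical.

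Autophagy encloses cytoplasm in a double membrane, the autophagosome, and delivers it to the lysosome for breakdown. The Atg1 kinase with its partner Atg13 starts the process when nutrients are short and TOR activity is low. A lipid kinase complex that contains Atg6, together with vesicles carrying Atg9, then nucleates the membrane. A pair of ubiquitin-like systems that share the activating enzyme Atg7 follows: one joins Atg12 to Atg5, and the other joins Atg8 to a membrane lipid. Cargo receptors such as ref(2)P bind Atg8 on one side and tagged cargo on the other. Lipid-bound Atg8 and the amount of ref(2)P protein are widely used readouts of autophagy, but at the protein level. The values here are mRNA levels, given as FPKM (the number of sequenced fragments scaled to gene length and to the mapped total), and say nothing of how active the process was. The study lowered Atg5 and Atg7 by RNAi in AKHR+ neurons, which makes their own transcript levels in these cells of interest.

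By an estimate from the low values, the 3 cells held between 6240000 and 6620000 fragments. Between 36.8% and 50.7% of all genes were detected, that is, had an FPKM of at least 1, with the fewest in cell 1. The 6 neuronal markers measured were detected in every cell, as was AkhR, the gene whose promoter marked the cells (FPKM 14.7, 1.90 and 2.52 in cells 1, 2 and 3). Cell 1 had no signal for 2 of the 3 octopamine markers, Tdc2 and Tbh. Markers of other cell types were present too: 5 of 6 glial, 7 of 7 photoreceptor and 4 of 6 fat body markers were detected in all 3 cells. Among these lists Fbp1 and Fbp2 were listed at 0 throughout. The levels below are therefore those of libraries that held markers of several cell types.

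Autophagy genes were detected more often than all 11922 gene IDs, but 42.3% of those IDs were detected in no cell. No test compared the shares. Cell 1 had 6 of the 10 autophagy genes at an FPKM of at least 1, against 36.8% of all genes. Cell 2 had 7 of 10, against 50.7% of all genes, and cell 3 had 9 of 10, against 47.2% of all genes. Detected in all 3 cells were 5 of 10 (Atg8a, ref(2)P, Atg6, Atg1 and Atg13), or 50%, against 31.1% of all genes. Without cell 1 this count was 7 of 10, against 41.7% of all genes, with Atg5 and Atg12 added. At an FPKM of at least 10 it was 3 of 10 (Atg8a, ref(2)P and Atg6), against 20.6% of all genes.

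The other 5 genes were each below detection in at least 1 cell. Atg5 and Atg12 were detected in cells 2 and 3 only, a pattern shared by 10.6% of all genes. Atg9 was detected in cells 1 and 3 only (1.68% of all genes) and Atg7 in cell 3 only (3.84% of all genes). Atg8b was detected in no cell, as were 42.3% of all genes. A 0 in a single cell was not rare among genes that were clearly present in the other cells. Of the 3535 genes with an FPKM of at least 10 in both cells 2 and 3, 13.5% were listed at 0 in cell 1. The same share was 3.07% of 2738 genes for cell 2 and 2.72% of 2754 genes for cell 3. Values of 0 are thus given as listed, with no mean FPKM for the gene.

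**Figure D1:**
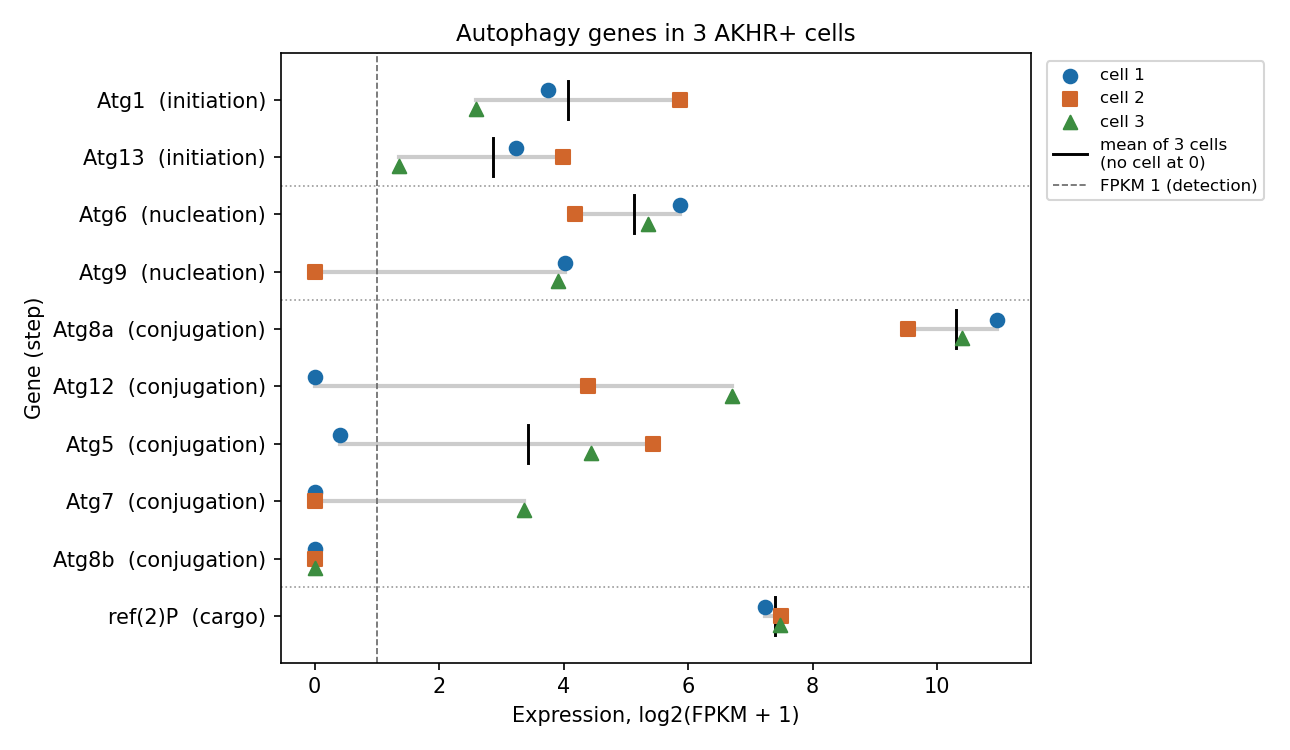
Expression of the 10 autophagy genes, as log2(FPKM + 1) on the horizontal axis, with genes grouped by step from initiation (top) to cargo (bottom); symbols are the 3 cells, grey bars span them, black ticks are means and the dashed line is FPKM 1. Atg8a lies farthest right in every cell (FPKM 1991, 737 and 1358), ref(2)P has the narrowest span of the genes above 0, and Atg8b is at 0 in all cells.

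The initiation genes were detected in every cell at low to moderate levels, and both were highest in cell 2 and lowest in cell 3. Atg1 (FBgn0260945) encodes the kinase that starts autophagosome formation and lies on the minus strand of chromosome 3L (12784429 to 12805116, BDGP6). Its FPKM reached 57.7 in cell 2, against 12.4 in cell 1 and 5.02 in cell 3, a mean of 25.0 ± 28.5 (SD, n = 3). The highest cell thus exceeded the lowest 11.5-fold, and the SD was larger than the mean. Atg13 (FBgn0261108, chromosome 3R, plus strand, 8349815 to 8352817), which encodes the regulatory partner of that kinase, had an FPKM of 8.46, 14.9 and 1.57, a mean of 8.32 ± 6.68 (SD, n = 3). Its highest cell exceeded its lowest 9.51-fold. The Atg1 value of cell 2 rested on about 1356 fragments, with a 95% Poisson interval from 1285 to 1430. The value of cell 3 rested on about 123, with an interval from 102 to 147. The intervals did not overlap, but they count PCR copies as fragments and do not cover molecules lost before amplification.

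Atg1 and Atg13 thus followed the same order of cells, but not in a fixed proportion. The ratio of Atg1 to Atg13 was 1.47, 3.86 and 3.20 in cells 1, 2 and 3. That order, cell 2 above cell 1 above cell 3, was found in 11.3% of the 3709 genes detected in all cells. The 7 photoreceptor markers had it too when summed, with an FPKM of 3951, 8083 and 2760 in cells 1, 2 and 3, and none of the 7 was at 0. Singly, 5 of the 7 had it (Arr1, Arr2, trp, norpA and chp). On the other lists, the glial marker moody (FPKM 4.54, 50.1 and 0.613) and the neuronal marker brp (27.2, 44.5 and 24.6) had it as well. The part of any of these markers in the levels of Atg1 and Atg13 was not tested.

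Of the nucleation genes, Atg6 was present in all cells and Atg9 in all but cell 2. Atg6 (FBgn0264325, chromosome 3R, minus strand, 24049180 to 24050782) encodes the fly homolog of Beclin 1, a subunit of the Vps34 lipid kinase complex. Its FPKM was 57.2, 17.2 and 40.03 in cells 1, 2 and 3, a mean of 38.1 ± 20.1 (SD, n = 3), with the highest cell 3.33-fold above the lowest. Atg9 (FBgn0034110, chromosome 2R, plus strand, 16294400 to 16297232) encodes the transmembrane protein of the vesicles that seed the membrane. Cell 2 was listed at 0 for Atg9, whereas cell 1 had an FPKM of 15.3 and cell 3 one of 14.0. Cells 1 and 3 were close to each other, with about 287 and 258 fragments. At the estimated depth, 3 fragments in cell 2 would have given an FPKM of 0.170. Fragments include PCR copies, so this floor does not cover molecules lost before amplification, and such loss was not tested. Cell 2 was the lowest cell for both nucleation genes, while it was the highest for both initiation genes.

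In the conjugation step a single gene, Atg8a, held nearly all of the signal. Atg8a (FBgn0052672, chromosome X, minus strand, 10764878 to 10768338) encodes the ubiquitin-like protein that is joined to the autophagosome membrane, the fly counterpart of mammalian LC3 and GABARAP. Its FPKM was 1991 in cell 1, 737 in cell 2 and 1358 in cell 3, a mean of 1362 ± 627 (SD, n = 3). It ranked 20th, 118th and 41st of the 11922 genes. Atg8a alone made up 89.1%, 69.0% and 78.5% of the summed FPKM of the 10 autophagy genes in cells 1, 2 and 3 (mean 78.9% ± 10.1, SD, n = 3). All 10 together took 0.454%, 0.207% and 0.320% of the summed FPKM of the cell. The summed FPKM of the 6 neuronal markers was 1456, 1118 and 1320, in the same order of cells as Atg8a, but of the 6 only Syx1A had that order by itself. The summed FPKM of the 6 glial markers was 2717, 1940 and 2939, and only nrv2 among them was highest in cell 3. By itself, the glial marker wrapper (FPKM 732, 323 and 568) had the order of Atg8a too. So did the octopamine marker Vmat (154, 71.2 and 95.4), the octopamine markers when summed (154, 91.8 and 117) and AkhR. The summed octopamine value of cell 1 was that of Vmat alone. Tdc2 (0, 13.3 and 8.58) and Tbh (0, 7.34 and 12.6) were at 0 in cell 1, where Atg8a was highest, and did not have its order. The part of any of these markers in the Atg8a level was not tested.

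Atg8b (FBgn0038539, chromosome 3R, minus strand, 17724410 to 17725063), the second Atg8 gene of the fly, was listed at 0 in all 3 cells. At the estimated depths, 3 fragments would have given it an FPKM of 0.718, 0.761 and 0.731 in cells 1, 2 and 3. The difference between Atg8a and Atg8b in log2(FPKM + 1) was 10.96, 9.53 and 10.41, higher for Atg8a in 3 of 3 cells (mean 10.30 ± 0.72, SD; p = 0.25 by an exact permutation of signs, two-sided). That is the smallest p that 3 cells can give, so the test could not reach 0.05. Because Atg8b was at 0, the difference equals the level of Atg8a itself and is no estimate of a fold.

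The genes for the other conjugation proteins were far lower and uneven between cells. Atg5 (FBgn0029943, chromosome X, minus strand, 7314622 to 7323770), which encodes the acceptor of Atg12, had an FPKM of 0.320, 42.5 and 20.8 in cells 1, 2 and 3 (mean 21.2 ± 21.1, SD, n = 3). The value in cell 1 corresponded to about 3 fragments (95% Poisson interval 0.619 to 8.77), so that cell sat at the edge of what could be measured. Cells 2 and 3 had about 376 and 191 fragments. Atg12 (FBgn0036255, chromosome 3L, plus strand, 12136967 to 12137559), the gene of the ubiquitin-like protein that is joined to Atg5, was listed at an FPKM of 0, 19.9 and 103. An FPKM of 0.966 would have corresponded to 3 fragments in cell 1. Both partners of this conjugate were therefore lowest in cell 1, but the ratio of Atg12 to Atg5 was 0.468 in cell 2 and 4.96 in cell 3, so their order turned round between those cells.

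Cell 1 was also the cell with the fewest detected genes and the cell in which Tdc2 and Tbh were at 0. The summed FPKM of the 6 fat body markers was 20173, 29449.8 and 32892 in cells 1, 2 and 3, the same order of cells as Atg12. Of the 6, only Yp1 had that order by itself. On the other lists, futsch (FPKM 7.86, 11.7 and 16.8) and Tbh (0, 7.34 and 12.6) had it as well. Atg5 was instead highest in cell 2 and lowest in cell 1. Markers from several lists had that order: elav (FPKM 4.36, 54.6 and 50.1), Syt1, repo, Gs2, Eaat1, ninaE, Yp3 and Tdc2. The part of low detection in cell 1, or of any of these markers, in the values of Atg5 and Atg12 was not tested.

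Atg7 (FBgn0034366, chromosome 2R, minus strand, 18620466 to 18625044), the gene of the activating enzyme that both conjugation systems need, was listed at an FPKM of 0, 0 and 9.26. The value in cell 3 corresponded to about 128 fragments (95% Poisson interval 107 to 152), while the floor of 3 fragments was 0.212 FPKM in cell 1 and 0.225 FPKM in cell 2. Of the autophagy genes that the study knocked down, Atg5 was thus detected in 2 of 3 cells and Atg7 in 1 of 3. The study reported that knock-down of either gene in AKHR+ neurons raised AKHR protein and the calcium response to AKH. Those effects do not measure transcript in these cells. A value of 0 here should not be read as absence, since 0 was also listed for genes clearly present in other cells. A second gene, CG5335, overlaps the span of Atg7 on the opposite strand and shares 0 exon bases with it. Its FPKM was 0, 2.13 and 104, so it too was far higher in cell 3, the sole cell with a value for Atg7. Whether fragments of one reached the other was not tested.

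The cargo receptor gene was the steadiest of the set. The gene ref(2)P (FBgn0003231, chromosome 2L, plus strand, 19542468 to 19545548) encodes the fly homolog of p62/SQSTM1, which binds ubiquitin-tagged cargo and Atg8. Its FPKM was 149.6, 179.7 and 178 in cells 1, 2 and 3, a mean of 169 ± 16.8 (SD, n = 3). The highest cell exceeded the lowest by a factor of 1.20. It was second to Atg8a in every cell, and the ratio of Atg8a to ref(2)P went with Atg8a, at 13.3, 4.10 and 7.65. The 173 exon bases that it shares with CG10337, a gene on the opposite strand with an FPKM of 3.47, 14.7 and 1.20, cannot be assigned to either gene without strand information, which the labels do not mention.

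**Figure D2:**
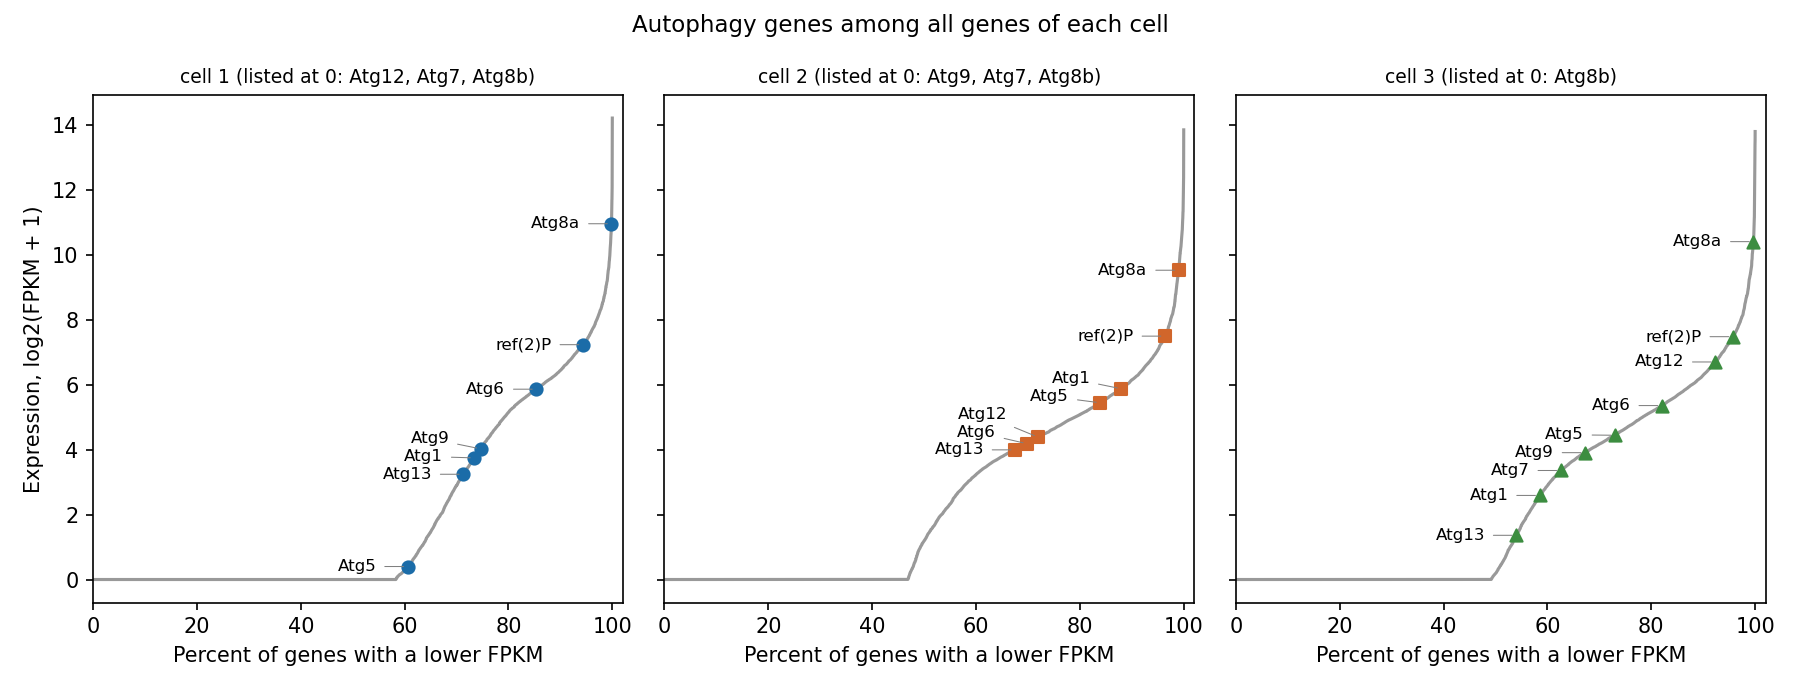
Level of the autophagy genes among all 11922 genes of cells 1, 2 and 3; the horizontal axis is the percent of genes of that cell with a lower FPKM, the vertical axis log2(FPKM + 1), the grey curve all genes and the symbols the autophagy genes above 0. Atg8a sits above 99.0% of genes in each cell and ref(2)P above 94.3%, while the others are spread along the curve and change places between cells.

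Set against all genes of the same cell, the autophagy genes covered almost the whole range. Atg8a was higher than 99.5% ± 0.433 of genes and ref(2)P higher than 95.5% ± 1.04 (mean and SD, n = 3). Atg6 was higher than 79.1% ± 8.18 of genes, Atg1 than 73.3% ± 14.8, Atg5 than 72.5% ± 11.7 and Atg13 than 64.3% ± 9.10. Many of the genes below them were at 0, and among genes above 0 in at least 1 cell Atg13 stood at 40.9%.

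The genes were next ordered by their mean log2(FPKM + 1), with cells listed at 0 included, and each was compared with its neighbour within cells. The order was Atg8a, ref(2)P, Atg6, Atg1, Atg12, Atg5, Atg13, Atg9, Atg7 and Atg8b. Only the first 2 of these 9 neighbouring pairs had the same direction in every cell. Atg8a exceeded ref(2)P by 2.89 ± 0.85 on the log2 scale and ref(2)P exceeded Atg6 by 2.27 ± 0.98 (SD, n = 3; p = 0.25 for each by the exact permutation of signs). From Atg6 downward, neighbours did not differ beyond their spread. Atg6 exceeded Atg1 by 1.06 ± 2.41, with Atg1 the higher gene in cell 2 (p = 0.5, exact permutation). After Benjamini-Hochberg adjustment over the 9 pairs each exact p was 1. With 3 cells none of these tests could reach 0.05, and the order itself was taken from the same values.

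**Figure D3:**
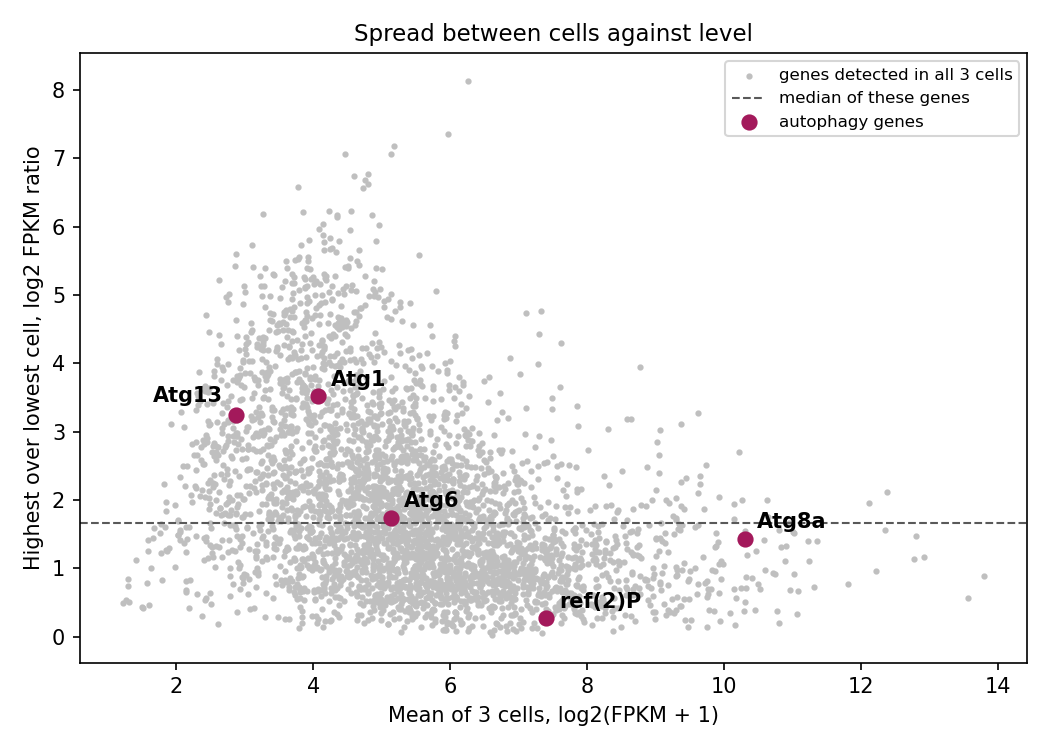
Spread between cells against level for the 3709 genes detected in all 3 cells; the horizontal axis is the mean log2(FPKM + 1), the vertical axis the log2 ratio of the highest to the lowest cell, grey points are genes, the dashed line their median (1.66) and the large points the 5 autophagy genes detected in all cells. The gene ref(2)P lies near the lower edge at 0.26, whereas Atg1 (3.52) and Atg13 (3.25) lie well above the median.

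The 5 genes detected in all cells also differed in how much they varied. Dividing the highest cell by the lowest gave a log2 ratio of 0.26 for ref(2)P, 1.43 for Atg8a, 1.74 for Atg6, 3.25 for Atg13 and 3.52 for Atg1, against a median of 1.66 over the 3709 genes detected in all cells. Of these genes, 2.10% had a smaller ratio than ref(2)P, 42.03% a smaller one than Atg8a, 52.1% than Atg6, 83.9% than Atg13 and 86.8% than Atg1. Since high genes varied less, ref(2)P and Atg8a were also set among the 889 genes with a mean FPKM of at least 100, whose median was 1.16, a comparison chosen after the data were seen. There, 3.37% of genes had a smaller ratio than ref(2)P and 64.2% a smaller one than Atg8a.

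Atg8a and Atg6 had the same order of cells. Both were highest in cell 1 and lowest in cell 2, the most common order, found in 21.8% of the genes detected in all cells. The ratio of Atg8a to Atg6 was 34.8, 43.0 and 33.9 in cells 1, 2 and 3, although each gene alone differed 2.70-fold and 3.33-fold between cells. How often other pairs of genes hold a ratio so closely was not tested. By contrast, the initiation genes peaked in cell 2, where Atg8a and Atg6 were lowest. The 10 genes thus did not move up and down together across cells.

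Mean transcript length by annotation was 469 bases for Atg12, 631.5 for Atg8b, 2134 for Atg7 and 2833 for Atg9, the 4 genes listed at 0 in at least 1 cell. It ran from 1136 for Atg8a to 3767 for Atg1 among the other 6, so the shortest 2 of the 10 genes were both among those listed at 0. The part of length was not tested. Of the 10 genes, 5 overlap another annotated gene. Exon bases are shared only by ref(2)P, as above, and by Atg12, which shares 64 with ND-SGDH on the opposite strand (ND-SGDH is not analysed here). Atg1 and Atg5 have CG42709 (FPKM 47.2, 18.1 and 6.24) and CG1677 (FPKM 11.1, 5.17 and 23.6) within or across their spans, with 0 shared exon bases.

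Other genes of the pathway were taken from a list of 32, of which 13 had a line. None of the 13 was missing from all cells, and 8 were detected in all 3 (61.5%), against 31.1% of all genes. All genes again include the 42.3% detected in no cell. The 8 comprised 0 of 2 nucleation genes, 1 of 3 cargo genes, 3 of 4 fusion genes and 4 of 4 lysosome genes. The other initiation and conjugation genes on the list are not analysed here.

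Both nucleation genes were uneven between cells. Pi3K59F, the gene of the Vps34 lipid kinase that works with Atg6, was listed at 0 in cell 1, but its FPKM was 11.9 in cell 2 and 73.8 in cell 3. Like Atg5 and Atg12 it was lowest in cell 1, and unlike Atg6 it was highest in cell 3. Atg2, which encodes a lipid transfer protein, reached an FPKM of at least 1 in cell 2 alone (0.484, 9.31 and 0.0982). In the cargo group, Pink1, the mitophagy kinase, had an FPKM of 19.7, 29.3 and 46.2 (mean 31.7 ± 13.4, SD, n = 3). Its partner in mitophagy, park, was higher than Pink1 in cells 1 and 2 but listed at 0 in cell 3 (37.9, 32.3 and 0). The large scaffold gene bchs was listed at 0.399, 0 and 1.14.

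The fusion and lysosome genes ranged from nearly absent to higher than ref(2)P, and no test compared the steps. Rab7, the GTPase of late endosomes that serves in fusion with the lysosome, had an FPKM of 154, 161 and 201 (mean 172 ± 25.3, SD, n = 3). It was close to ref(2)P in level. Syx17, the autophagosomal fusion SNARE, had an FPKM of 76.95, 27.9 and 62.1, again highest in cell 1 and lowest in cell 2. Of the genes of the tethering complex, car had an FPKM of 7.16, 32.5 and 20.7, a 4.54-fold span, and dor was listed at 0, 2.43 and 0. The lysosomal protease gene cathD was the highest of the 13 at 603, 495 and 644 (mean 581 ± 77.4, SD, n = 3), and a second protease gene, CtsL1, had 273, 257 and 378. The lysosomal transporter gene spin was nearly level at 40.7, 33.8 and 37.1, and Mitf, the transcription factor of lysosome genes, had 24.6, 25.0 and 9.27.

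**Figure D4:**
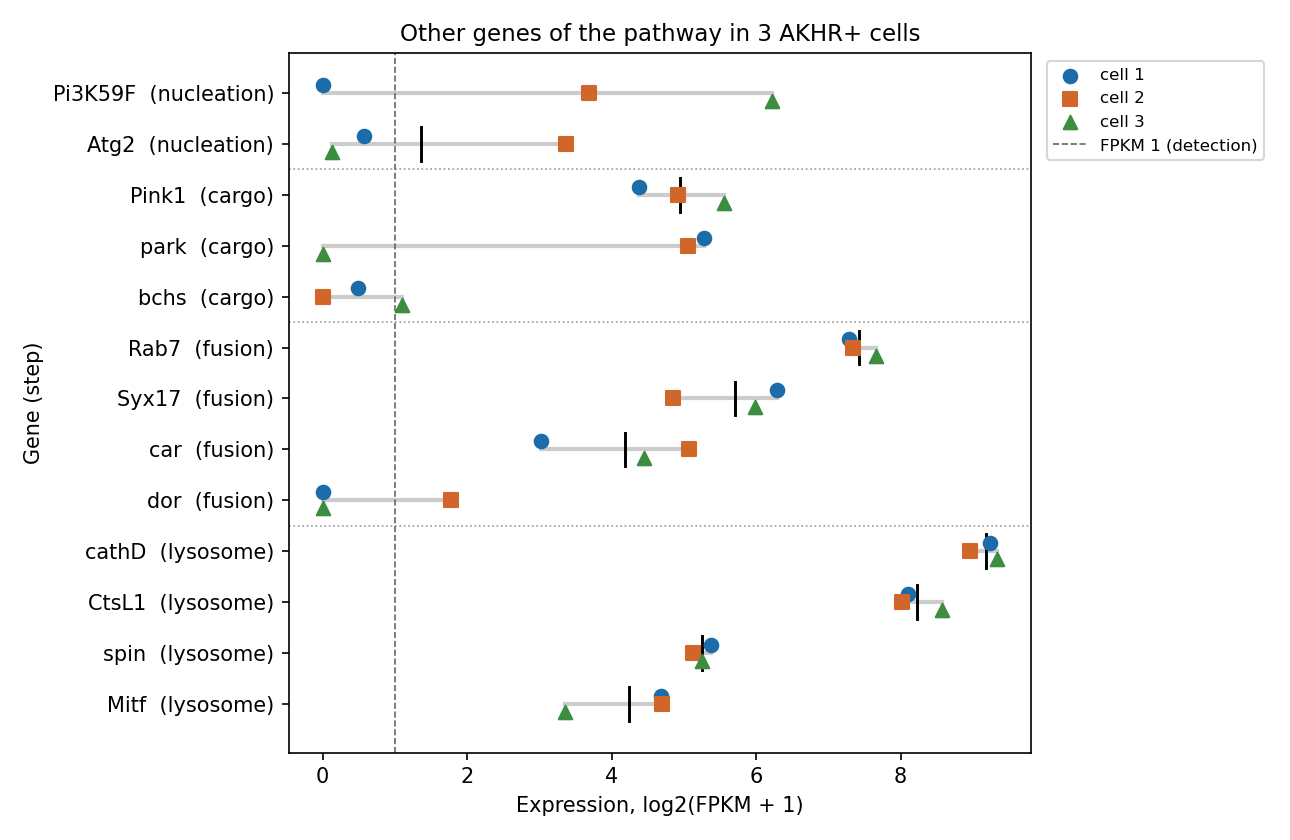
Expression of 13 other genes of the pathway, as log2(FPKM + 1) on the horizontal axis, grouped by step from nucleation (top) to lysosome (bottom); symbols, bars and lines are as for the 10 autophagy genes. The 4 lysosome genes are above the detection line in every cell, led by cathD (FPKM 603, 495 and 644), whereas Pi3K59F, park, bchs and dor are at 0 in at least 1 cell.

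Genes nearest in level to each autophagy gene detected in all cells were found by the root mean square difference in log2(FPKM + 1) over the 3 cells. For Atg8a they were Prx5 (0.28), nrv2 (0.29) and CG3662 (0.36), all of them lowest in cell 2, as Atg8a was. The second of these, nrv2, is also on the list of glial markers. For ref(2)P they were ogre (0.08), slgA (0.11) and mge (0.12), and for Atg6 slv (0.09), Srp72 (0.19) and the gene FBgn0036169 (0.20). For Atg1 they were CG4462 (0.23), Gbeta76C (0.23) and CG4629 (0.27), and for Atg13 Calx (0.12), X11L (0.23) and Trf4-1 (0.25). With 3 cells, such closeness is a description of levels only.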

How the data were processed

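Individual GFP-marked cells were collected with a glass pipette, and their cDNA was amplified by a SMART-type protocol, sonicated and made into libraries with further PCR. The authors removed low-quality reads, adaptors and primers, aligned the rest to the fly genome and deposited FPKM per gene. HISAT is named in the submitters' processing notes; quantifier, genome build and annotation are not given in the sources used here. No molecular identifiers are described, so PCR copies count as fragments, and FPKM falls for every gene when a few transcripts take much of a library. Count models were not applied to FPKM. The value column of cell 3 carries another sample number than its label, and the label was followed.

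Each library had 12180 lines for 11922 gene IDs. Of these IDs, 117 stood on more than 1 line and were averaged (0 of the 10 autophagy genes). No pair of cells shared an identical value above 0 (0 genes). Symbols, coordinates and transcript lengths were taken by FlyBase ID from BDGP6.54 (Ensembl release 115), which matched 11794 IDs. The authors' annotation may differ. Depth was estimated by searching from 3 to 10 (fragments divided by 1000000) for the step that placed low values of genes with 1 annotated transcript on whole multiples. Of the low values tested (194, 161 and 176), 66.5%, 46.6% and 57.4% lay within 0.1 of a whole number, where a step fixed in advance would give 20%. The estimates, 6620000, 6240000 and 6500000 fragments, are approximate. Depths above the searched range were not tried, and if the true depth is a multiple of an estimate, the fragment counts rise and the floors fall by that factor, and the intervals narrow. Fragments per gene used the mean transcript length. Exact Poisson intervals (95%) and floors (the FPKM of 3 fragments) cover the counting error of fragments only, not molecules lost before amplification.

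Levels were compared as log2(FPKM + 1), which understates differences of low genes. For differences within cells, all sign changes of the 3 values were enumerated (exact permutation, two-sided), which gives a p of 0.25 at the least. The depth search was tested on simulated data, and the tests were checked on small examples with known answers. The simulation drew Poisson counts with the same transcript lengths, so it did not cover PCR copies or a differing annotation. All 10 listed genes are named; of the other pathway genes, the rule named the highest of each step, and the rest were named after their values were seen. The genes, lists and tests were chosen with earlier results of these data known. Alternatives were other thresholds, pseudocounts and scalings, summed lines and leaving out each cell. Python 3.11.15, pandas 2.3.3 and scipy 1.17.1 were used.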

Additional observations from a re-analysis of the deposited data

How the results depend on the processing

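Alternatives gave 161 values for 31 results. Of these values, 143 did not reverse, or moved by less than the spread between cells or, for counts, by less than 1.5 times. Atg7 minus Atg8b fell to 0 without replicate 3 and is counted among them. Summing repeated lines gave 29 of the 143, but 0 of the 10 genes stood on several lines, so their levels could not change there. Nor could rescaling change the share of Atg8a, or any setting the percentile of Atg8b. For 60 of the 161 values the exact test could not reach 0.05, so staying above it there says nothing of stability. The number of autophagy genes detected in every cell was 3 instead of 5 when an FPKM of at least 10 was asked for. Leaving out 1 replicate gave 5 to 7, the most without replicate 1. Rescaling each cell to a common sum of 1000000 about doubled every level and took mean FPKM to 2662 for Atg8a, 327 for ref(2)P, 74.5 for Atg6 and 16.3 for Atg13, a matter of scale. Among genes above 0 in at least 1 cell, the mean percentile was 92.5 for ref(2)P, 65.4 for Atg6, 55.8 for Atg1, 54.5 for Atg5 and 40.9 for Atg13.

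Neighbours low in the order changed places easily. The log2 difference between Atg12 and Atg5 reversed to -0.29 at a pseudocount of 0.1, as a value of 0 then weighs more. With 1 replicate left out in turn it lay between -0.73 and 0.93, that of Atg1 minus Atg12 from -1.31 to 2.62, of Atg5 minus Atg13 from -0.70 to 2.27 and of Atg13 minus Atg9 from -1.66 to 1.61. Mean FPKM ranged from 8.72 to 35.0 for Atg1, which was lowest without replicate 2. For Atg8a it ranged from 1048 to 1675, for ref(2)P from 164 to 179, for Atg6 from 28.6 to 48.6, for Atg5 from 10.5 to 31.6 and for Atg13 from 5.02 to 11.7. The share of Atg8a among the 10 genes ranged from 73.7% to 83.8%. No paired analysis was possible because the samples form one group. Where Atg8b, Atg7 or another gene was listed at 0, only its floor at the estimated depth can be given. That floor does not cover transcripts lost before amplification.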
